A study of Mus musculus with 2 samples.

Results

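The 9 secreted phospholipase A2 genes *Pla2g1b*, *Pla2g2d*, *Pla2g2e*, *Pla2g2f*, *Pla2g3*, *Pla2g5*, *Pla2g10*, *Pla2g12a* and *Pla2g12b* were taken by name from the annotation of the arrays. After mapping to current symbols the array had 30133 names in all, where a probe without a gene name counts under its own name. The 9 genes had 15 probes other than controls, each with 1 spot, and every probe is given separately. Total RNA from the skin of newborn C57BL/6N mice at postnatal day 0 was pooled in equal amounts from 6 animals per genotype and hybridized to 1 Agilent 1-colour array for *Pnpla1*+/+ (wild type) and 1 for *Pnpla1*-/- (knockout). The knockout is a germline disruption of *Pnpla1* in all cells, made from 1 targeted allele, and the wild-type pups were littermates. With 1 array per genotype no test between the genotypes was possible, no p-value or spread between mice is given, and each difference describes these 2 pools. Both arrays were read in the same scan.

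Secreted phospholipases A2 are small, disulfide-rich enzymes that leave the cell and cleave the fatty acid from the middle position of membrane and lipoprotein phospholipids in the presence of calcium. They release a free fatty acid and a lysophospholipid, and the members differ in the phospholipids they prefer and in the cells that make them. In skin, group IIF is known from the suprabasal epidermis, groups IIE and X from the hair follicle, group IID from dendritic cells and macrophages, and group III from work on mast cell maturation.

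The probes behind the main values are shown first, since the size of a difference depended on the probe. Each is a designed oligonucleotide of 60 bases, of which the last 30 bases are printed 5′ to 3′, with the letters AATAAA in capitals. These are the letters of the usual polyadenylation signal, and their use as one was not tested. Positions follow the mm9 annotation in the array files. The pair for *Pla2g5* lies on the minus strand, with the first probe at chr4:138355185-138355244 and the other over 750 bases of the genome from chr4:138356545-138357294, so that it crosses an intron. The pair for *Pla2g2d* lies on the plus strand at chr4:138336981-138337040 and chr4:138337867-138337926. *Pla2g2f* was read at chr4:138306448-138306507 on the minus strand, and *Pla2g3* at chr11:3394109-3394168 and chr11:3393127-3393186 on the plus strand.
Pla2g5 A_55_P1962693: tttagtgttcaaacattttctaAATAAAgc
Pla2g5 A_51_P207892: cacgactccttctgtccaatgaggctctgt
Pla2g2d A_55_P2173897: caaagagccctcttAATAAAcaactttcac
Pla2g2d A_51_P232281: tctgtctgagtcagaaaatagccactttaa
Pla2g2f A_55_P2020952: aactAATAAAaaccctcctgtcttggctgc
Pla2g3 A_55_P2043033: cacccagtaaacattcttcttctctaacac
Pla2g3 A_55_P2043039: aggggacagaagaaattctggagctcataa

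The letters AATAAA were in 6 of the 15 member probes and in 12.6% of all 39429 probes. In the *Pla2g5* probe A_55_P1962693 they end 2 bases before the end of the probe. The longest run of bases shared by probes of different members was 13 bases, and no probe of another gene shared a run of 20 bases with a member probe. Hybridization of related transcripts was not tested.

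Intensities below are the background-subtracted signals as deposited. For comparison between arrays each was divided by the 75th percentile of its array, 2108 in the wild-type pool against 1734 in the knockout pool, and this ratio is called the scaled signal. A difference is the log2 scaled signal of *Pnpla1*-/- minus that of *Pnpla1*+/+ skin. The error beside a difference is technical, from the signal errors that the scanning software gives for the pair of spots, and it holds no variation between mice. Among 309 probes with at least 8 spots on each array, the median SD of a difference between repeated spots was 0.08, and it was 0.22 for the 40 probes with an intensity under 100 on the dimmer array. *Pnpla1*, the targeted gene, had an intensity of 579 in the wild-type pool against 114 in the knockout pool. The difference was −2.07, in the direction of the labels, and its probe kept a signal well above background in the knockout pool. The pools also differed in sex-linked genes, with *Xist* at a difference of 1.12 and the Y-linked *Ddx3y* at −2.19, so that genotype and the sex of the pooled pups cannot be told apart.

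Of the 15 member probes, 10 were well above background on both arrays, from 6 genes. A *Pla2g1b* probe was well above background in the knockout pool alone and gives a bound, and 4 probes were not well above background on either array. *Pla2g2d* was higher in *Pnpla1*-/- skin at both of its probes. *Pla2g5* was lower at both of its probes, and *Pla2g3* was lower at both measured probes, 1 of them just past 2-fold. *Pla2g2f*, *Pla2g2e* and *Pla2g12a* were under 2-fold. In numbers, 2 of the 11 probes with a value were at least 2-fold higher, against 6.42% of the 29322 array probes with a value. At least 2-fold lower were 3 of the 11, against 2.93%. These 5 probes come from 3 genes, and probes of 1 gene are not independent of each other. The *Pla2g5* probes are annotated to different transcript records of that gene. Among all probes past 2-fold, 68.7% were higher, a share that went to 40.7% with no scaling, 27.0% with centring on spike-in RNA and 57.9% with quantile normalization. The median difference was −0.14 over the 10 measured member probes and −0.01 over the 27106 measured probes of the array, whose SD was 0.67. The member differences ran from −4.54 to 2.46.

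**Figure D1:**
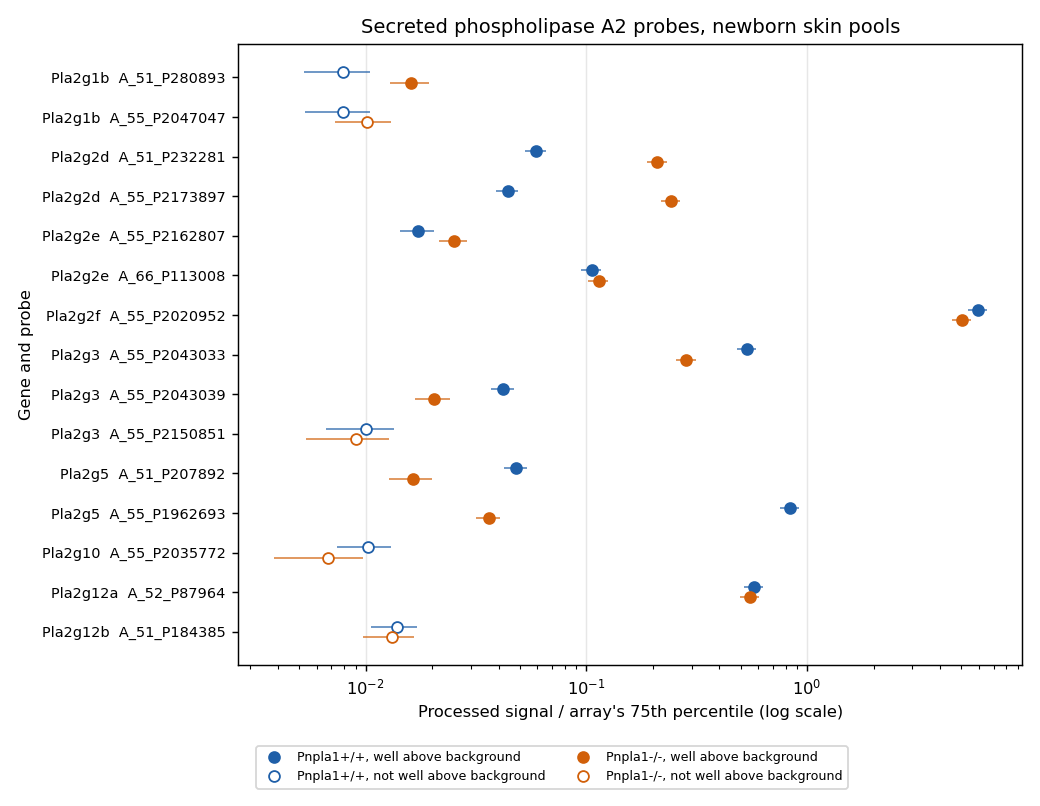
Processed signal of each of the 15 probes divided by the 75th percentile of its array (log axis), with 1 point per array, *Pnpla1*+/+ in blue and *Pnpla1*-/- in orange, and bars for the error given by the scanning software. Open points are not well above background. The points of the 2 arrays lie far apart for *Pla2g5* and *Pla2g2d*, and close together for *Pla2g2f* and *Pla2g12a*.

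*Pla2g2f*, the group IIF enzyme of the suprabasal epidermis, had an intensity of 12494 ± 1249 in the wild-type pool against 8706 ± 871 in the knockout pool. After scaling these were 5.93 and 5.02 times the 75th percentile of their arrays, and the difference was −0.24 ± 0.20. The *Pnpla1*-/- signal was the lower of the pair under every one of the 11 alternative settings, from −0.67 with spike-in centring to −0.23 with cyclic loess. It was under 2-fold in each of them, and 26.3% of all measured probes had a lower difference. Of these settings, the other scalings shift all probes alike, and filters on dim or flagged spots leave this value unchanged. The 11 suprabasal keratinocyte markers, of which 10 were found by name, are the nearest cell type measure for this gene. Their median was 0.07, their summed scaled signal was 505 and 511 in *Pnpla1*+/+ and *Pnpla1*-/- skin, and *Krt10* had the highest signal, here and in the other lists that of the wild-type pool. *Dsc1* was at least 2-fold higher at 1.20, and *Flg2* was the only one at least 2-fold lower, at −6.41.

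*Pla2g2e* and *Pla2g10* are the members known from the hair follicle. The *Pla2g2e* probe A_66_P113008 at chr4:138438659-138438718 had an intensity of 223 ± 23.0 in the wild-type pool against 197 ± 20.4 in the knockout pool, a difference of 0.11 ± 0.21 that turned to −0.18 with no scaling and −0.32 with spike-in centring. The dimmer probe A_55_P2162807 at chr4:138438368-138438427 gave 36.6 ± 6.36 and 43.6 ± 6.40, a difference of 0.54 ± 0.33. The 2 values lie 0.43 apart, with a joint technical error of 0.39. *Pla2g10*, read on the minus strand at chr16:13715169-13715228, had 21.6 in the wild-type pool against 11.7 in the knockout pool and reached the background limit in neither pool. Beside these values, 12 of 21 hair follicle markers were at least 2-fold lower in *Pnpla1*-/- skin, against 3.05% of all genes with a value. None of these markers was at least 2-fold higher, against 6.71% of all genes with a value. Their median was −1.10, and their summed scaled signal went from 125 to 67.5. The highest signal was that of *Krt71*, a keratin of the inner root sheath, with a difference of −0.82. The largest difference of the list was that of *Krt72* at −3.41, followed by *Krt33a* at −1.70 and *Krt34* at −1.66. Neither *Pla2g2e* probe was past 2-fold in either direction under any alternative. Fewer cells of a type and less RNA per cell cannot be told apart in such bulk samples.

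*Pla2g2d* encodes the group IID enzyme, known as a product of dendritic cells in lymphoid tissue and skin that is linked to the release of anti-inflammatory fatty acids. Probe A_55_P2173897 had an intensity of 92.8 ± 10.99 in the wild-type pool against 419 ± 42.2 in the knockout pool. Probe A_51_P232281 had 125 ± 13.5 and 364 ± 36.6. Both were higher in the *Pnpla1*-/- pool, by 2.46 ± 0.22 (5.48-fold) and 1.82 ± 0.21 (3.54-fold) on the scaled signal. Among the 27106 measured probes, 252 had a difference at least as high as the first and 498 at least as high as the other, with both probes counted themselves. Each was at least 2-fold higher under all 11 alternatives, from 1.81 to 2.46 for the first and from 1.40 to 1.84 for the other. The probes lie 0.63 apart with a joint technical error of 0.31, a gap larger than that of 89.1% of the 5112 genes with at least 2 measured probes, whose median gap was 0.18.

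Markers of the cells known to make group IID are given beside it. Of 10 dendritic and Langerhans cell markers, 4 were at least 2-fold higher in *Pnpla1*-/- skin, *Itgax* at 2.82, *Cd74* at 2.46, *H2-Ab1* at 2.43 and *Ccr7* at 1.79, and *Cd209a* was at least 2-fold lower at −1.40. Their summed scaled signal was 2.99 in the wild-type pool against 12.3 in the knockout pool, with the highest signal from *H2-Ab1*, and their median was 0.75. *Cd207*, the defining marker of Langerhans cells, passed the background limit in neither pool, at 6.06 and 21.6. Of 10 macrophage markers, 3 were at least 2-fold higher, *Lyz2* at 2.35, *Adgre1* at 1.24 and *Cd163* at 1.13, and none was at least 2-fold lower. With no scaling and with spike-in centring, *Lyz2* was the only 1 of the 10 at least 2-fold higher, and *Cd163* was also under 2-fold with quantile normalization, cyclic loess and normexp. The macrophage sum went from 17.4 to 30.4, the median was 0.86, and *Csf1r* had the highest signal. The part of these markers in the *Pla2g2d* difference was not tested.

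*Pla2g5* encodes the group V enzyme, which binds phosphatidylcholine-rich membranes and is made by macrophages, endothelium, fat and muscle among other sources. Probe A_55_P1962693 had an intensity of 1764 ± 177 in the wild-type pool against 62.5 ± 7.80 in the knockout pool, scaled signals of 0.837 and 0.0360. The difference was −4.54 ± 0.23, or 23.2-fold lower in *Pnpla1*-/- skin. Of all measured probes, 5 were at least as low, with this one among them. Probe A_51_P207892, which crosses the intron, had 101 ± 11.8 and 28.3 ± 6.18, a difference of −1.56 ± 0.36 (2.94-fold lower). The *Pnpla1*-/- signal was the lower one at both, and 197 measured probes were at least as low as the second.

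The *Pla2g5* probes differed in size by 2.98, with a joint technical error of 0.42. Only 8 of the 5112 genes with at least 2 measured probes had a gap at least as large, *Pla2g5* included. The signal of the second probe in *Pnpla1*-/- skin, 28.3, stood near the lowest intensity well above background on that array, 21.7. With normexp background correction, which adds an offset of 50, the differences were −3.60 and −0.54, so that the second probe was no longer past 2-fold. Under the other 10 alternatives both stayed at least 2-fold lower. Of the cell types known for this enzyme, macrophage markers are given above and none was at least 2-fold lower. The 10 skeletal muscle markers had a median of 0.06 and none past 2-fold, with *Tnni2* the highest in signal and sums of 402 and 441. The 10 adipocyte markers had a median of 0.10 and none past 2-fold, with *Fabp4* the highest in signal, sums of 108 and 131, and *Lep* not well above background on either array. Of 10 endothelial markers 1 was at least 2-fold higher, *Vwf* at 1.35, and none was lower by as much, with a median of 0.30, sums of 22.2 and 28.7 and *Egfl7* the highest in signal. Other cell type lists had lower medians, −1.10 for hair follicle, −0.47 for mast cell and −0.22 for fibroblast markers. The dendritic, basal and suprabasal lists had medians of 0.75, 0.14 and 0.07. The part of any of these cell types in the *Pla2g5* difference was not tested.

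**Figure D2:**
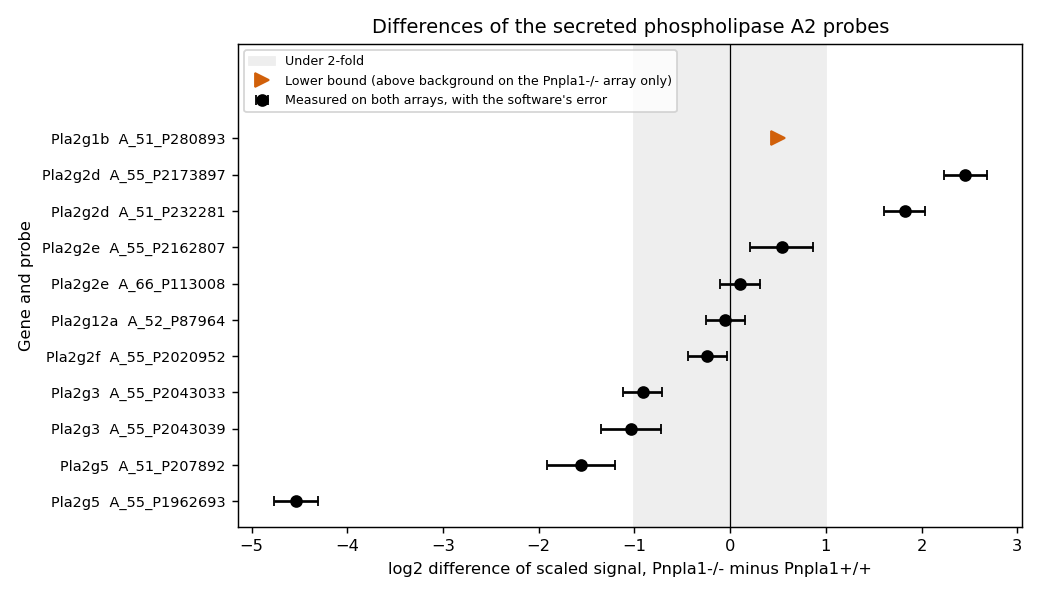
Difference of the log2 scaled signal, *Pnpla1*-/- minus *Pnpla1*+/+, for each probe with a value, with bars for the technical error of the pair of spots and grey for differences under 2-fold. Both *Pla2g2d* probes lie to the right of the grey band and both *Pla2g5* probes to its left, 2.98 apart from each other.

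*Pla2g3* encodes the group III enzyme, a larger relative of bee venom phospholipase A2 that is known for its part in the maturation of mast cells. Probe A_55_P2043033 had an intensity of 1127 ± 113 in the wild-type pool against 492 ± 49.5 in the knockout pool, a difference of −0.91 ± 0.20. Probe A_55_P2043039 had 88.5 ± 10.7 and 35.5 ± 6.45, a difference of −1.04 ± 0.32. They lie on opposite sides of the 2-fold threshold but only 0.12 apart, within their joint technical error of 0.38. The first ranged from −1.34 to −0.82 over the alternatives, and the other from −1.46 to −0.27, the latter with normexp background correction. Another probe, A_55_P2150851 at chr11:3399294-3399353, lies several kilobases downstream of the others and did not pass the background limit, at 21.1 in the wild-type pool against 15.7 in the knockout pool. Mast cell markers had a median of −0.47 over 10 genes, with a summed scaled signal of 71.0 in the wild-type pool against 55.2 in the knockout pool. *Cpa3* had the highest signal and a difference of −0.52. *Tpsab1* was at least 2-fold lower at −2.67, *Fcer1a* was at least 2-fold higher at 1.41, and the other 8 were under 2-fold. The part of mast cells in the *Pla2g3* difference was not tested.

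*Pla2g12a*, the group XIIA enzyme found in many tissues, was read at chr3:129597769-129597828. It had an intensity of 1207 ± 121 in the wild-type pool against 958 ± 96.0 in the knockout pool, a difference of −0.05 ± 0.20. The scaled signals of the pools overlapped within the technical error, and the sign turned with cyclic loess, to 0.05. *Pla2g12b*, a liver protein of the same group that lacks catalytic activity, had 29.3 and 22.8 at chr10:58884374-58884433 and passed the background limit in neither pool. *Pla2g1b*, the digestive enzyme of the pancreas, had 16.6 in the wild-type pool against 27.8 in the knockout pool at chr5:115924590-115924649, where it passed the background limit in *Pnpla1*-/- skin only. That made it at least 1.42-fold higher, measured against the lowest signal well above background on the *Pnpla1*+/+ array. Its other probe, at chr5:115921797-115921853, had 16.7 and 17.5 and passed on neither array.

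*Pla2g2f*, *Pla2g2d*, *Pla2g5* and *Pla2g2e* are neighbours on mouse chromosome 4, where their 7 probes lie within 132 kb, and the other 5 members lie on other chromosomes. The neighbours did not differ in 1 direction. Along the chromosome the differences were −0.24 for *Pla2g2f*, 2.46 and 1.82 for *Pla2g2d*, −4.54 and −1.56 for *Pla2g5*, and 0.54 and 0.11 for *Pla2g2e*. Between *Pla2g2d* and *Pla2g5*, whose nearest probes start 17.3 kb apart, the sign changed at all probes and under all 11 alternatives. Of these alternatives, only quantile normalization, cyclic loess and normexp can change the gap between 2 measured probes. *Pla2g2a*, which the RefSeq annotation lists as a transcribed pseudogene, lies in the same stretch, *Pla2g2c* lies just beyond *Pla2g2f*, and they are not among the 9 genes. Neither passed the background limit in either pool. Of the 14 probes of other genes within 250 kb of either end, 8 were measured on both arrays, from 6 genes. They ran from −0.98 (*Nbl1*) to 0.77 (*Tmco4*) with a median of 0.24. None was past 2-fold here, but *Nbl1* was at least 2-fold lower under 5 of the 11 alternatives, down to −1.41 with spike-in centring. The other 7 probes stayed under 2-fold in all 11.

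**Figure D3:**
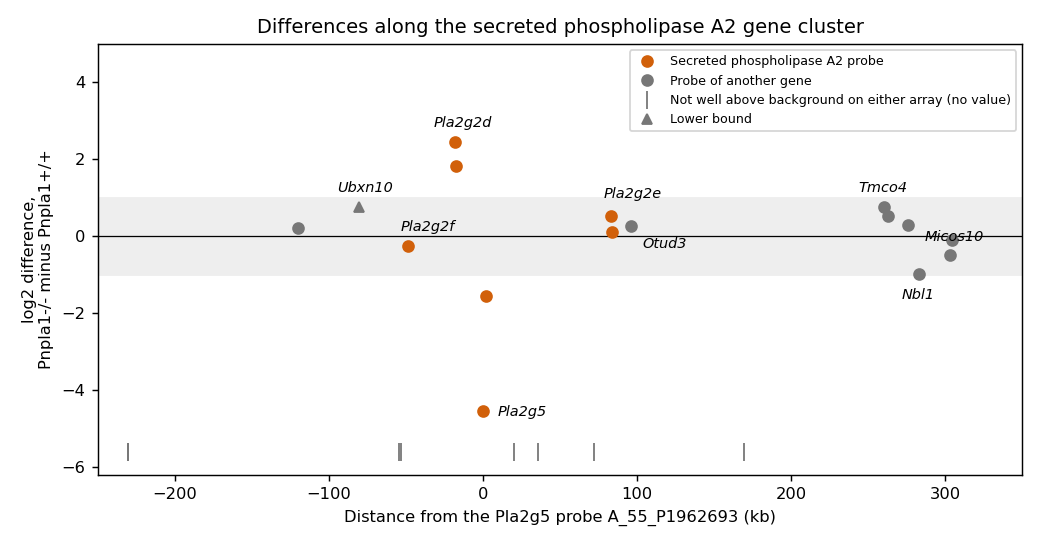
Difference of the log2 scaled signal, *Pnpla1*-/- minus *Pnpla1*+/+, against distance along chromosome 4 from a *Pla2g5* probe in kb, with secreted phospholipase A2 probes in orange and other genes in grey. The grey band holds differences under 2-fold, and ticks at the bottom show probes with no value. The orange points at *Pla2g2d* and *Pla2g5* stand on opposite sides of the band, while all measured grey points lie inside it, *Nbl1* at −0.98 close to its edge.

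The reference holds promoter sequence for 8 of the 9 genes, with 2 starts for *Pla2g5* that are 44.2 kb apart. The 250 bases before the starts of *Pla2g2d* and *Pla2g5*, the genes with the largest differences in each direction, and of *Pla2g2e*, the gene with a motif match, are printed 5′ to 3′ from RefSeq on GRCm38.p6. Capitals mark an AP-1 motif in *Pla2g2e*, and before the upstream start of *Pla2g5* a unit of 16 bases that occurs 5 times. The *Pla2g2d* stretch is chr4:138775485-138775734 on the plus strand, those of *Pla2g5* are chr4:138819258-138819507 for the downstream and chr4:138863470-138863719 for the upstream start on the minus strand, and that of *Pla2g2e* is chr4:138877692-138877941 on the plus strand.
Pla2g2d: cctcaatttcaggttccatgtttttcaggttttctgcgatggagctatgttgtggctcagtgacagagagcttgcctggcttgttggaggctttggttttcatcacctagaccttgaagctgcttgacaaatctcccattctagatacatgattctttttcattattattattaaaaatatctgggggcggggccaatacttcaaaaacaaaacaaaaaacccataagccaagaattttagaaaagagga
Pla2g5 downstream start: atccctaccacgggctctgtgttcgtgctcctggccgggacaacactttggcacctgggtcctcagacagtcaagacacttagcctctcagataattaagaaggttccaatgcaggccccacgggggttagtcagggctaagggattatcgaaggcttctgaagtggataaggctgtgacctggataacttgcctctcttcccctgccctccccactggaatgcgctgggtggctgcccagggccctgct
Pla2g5 upstream start: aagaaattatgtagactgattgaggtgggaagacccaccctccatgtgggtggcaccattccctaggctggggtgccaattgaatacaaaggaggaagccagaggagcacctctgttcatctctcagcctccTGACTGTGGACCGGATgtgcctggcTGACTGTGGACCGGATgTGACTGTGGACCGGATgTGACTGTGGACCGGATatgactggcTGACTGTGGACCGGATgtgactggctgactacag
Pla2g2e: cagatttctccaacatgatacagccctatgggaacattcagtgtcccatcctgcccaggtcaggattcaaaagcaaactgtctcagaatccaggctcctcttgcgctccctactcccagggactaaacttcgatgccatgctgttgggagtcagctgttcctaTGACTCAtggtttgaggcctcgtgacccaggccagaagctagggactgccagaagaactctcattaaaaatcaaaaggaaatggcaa

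The motifs were searched on both strands in these windows for all 32851 promoters. The AP-1 letters TGANTCA were in 1 of the 9 member windows, that of *Pla2g2e*, against 6.75% of all windows. The STAT letters TTCNNNGAA (7.02% of all windows) and the TATA box letters TATAAA or TTTATA (12.4%) were in none of the 9. The unit of 16 bases in *Pla2g5* was found by looking at that sequence and was in no other of the 9 windows. A match is a stretch of letters and no site, and the arrays do not tell from which start *Pla2g5* was read.

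The other genes of the pathway are given from lists, each gene by its probe with the highest mean signal. At this level at least 2-fold higher signals were seen for 6.71% of the 22380 genes with a value and at least 2-fold lower ones for 3.05%. The median difference was −0.01 over those measured on both arrays. Probes without a gene name are counted among these genes. Of 5 genes in a list of other family members and their receptor, 2 had a value and *Pla2g2a*, *Pla2g2c* and *Oc90* had none. *Proca1*, a relative in sequence with the highest signal of the list, had scaled signals of 0.251 and 0.252. *Pla2r1*, the receptor that binds several secreted phospholipases A2, had an intensity of 178 in the wild-type pool against 207 in the knockout pool, a difference of 0.50. Of 19 intracellular and other phospholipases A2, 18 had a value. *Pla2g4d* and *Pla2g4e*, cytosolic enzymes, were at least 2-fold higher at 5.71 and 4.25, none was at least 2-fold lower, and the median was 0.32. *Pnpla2*, the triglyceride lipase, had the highest signal of that list and a difference of −0.06.

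Other lists hold genes that act on the products of these enzymes. Of 12 lysophospholipid signalling genes with a value, 1 was at least 2-fold higher, the receptor *Lpar5* at 1.05, and 1 at least 2-fold lower, the receptor *Lpar3* at −1.23. Their median was −0.17. *Enpp2*, which makes lysophosphatidic acid outside the cell, had the highest signal and a difference of −0.16. Of 13 genes of lysophospholipid reacylation and breakdown, 1 was past 2-fold, *Gdpd1* at 1.31, with a median of 0.23 and the highest signal from *Lypla2* at 0.23. Of 19 eicosanoid synthesis genes with a value, 5 were at least 2-fold higher and none at least 2-fold lower, with a median of 0.07 over the 18 measured on both arrays. The inducible cyclooxygenase gene *Ptgs2* had 54.2 in the wild-type pool against 226 in the knockout pool, a difference of 2.36. *Alox5ap*, which presents arachidonic acid to 5-lipoxygenase, was higher by 1.95. *Alox8*, a lipoxygenase gene, was above the background limit in the knockout pool alone and had a bound of 3.71. *Ptges3* had the highest signal in the wild-type pool, with a difference of 0.04, and *Ptges*, a prostaglandin E synthase, in the knockout pool, with a difference of 0.69. Of 11 genes of the interleukin-22 and interleukin-20 axis, a list that holds cytokines, related interleukins and receptor chains, 3 were at least 2-fold higher, *Il19* at 5.72, *Il20* at 2.89 and *Il23a* at a bound of 1.84. None was at least 2-fold lower, and *Il22* itself had 56.0 and 87.6, a difference of 0.93. *Il20rb*, a receptor chain, had the highest signal of the list, with a difference of −0.26.

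**Figure D4:**
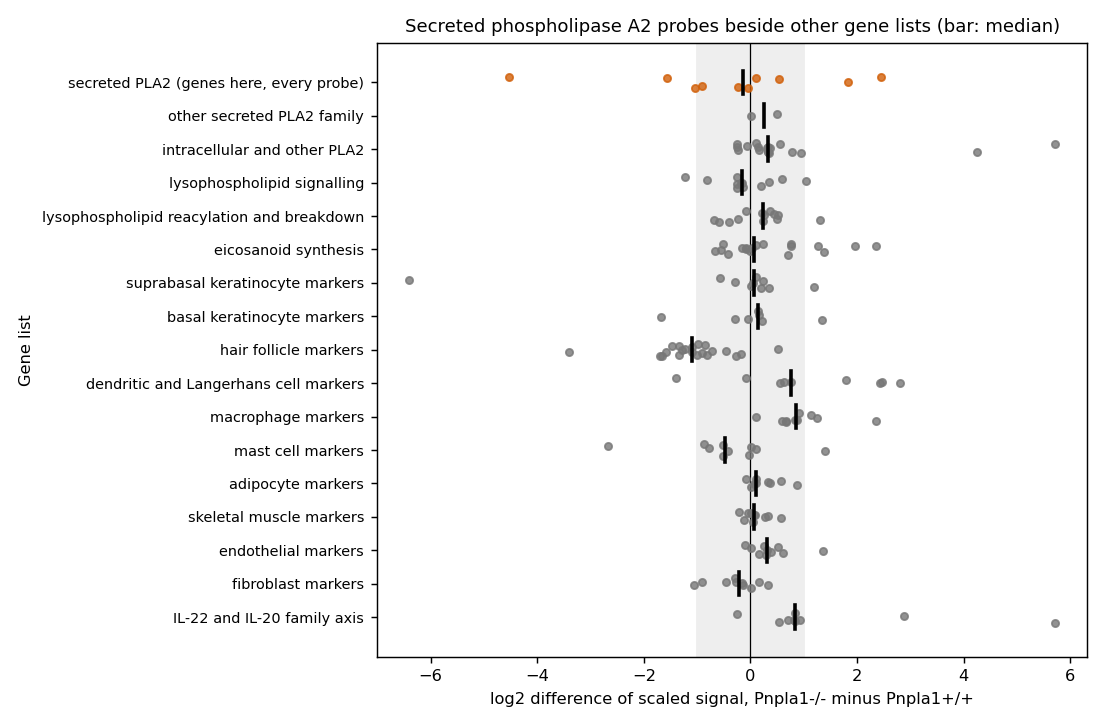
Difference of the log2 scaled signal, *Pnpla1*-/- minus *Pnpla1*+/+, for the 10 measured secreted phospholipase A2 probes (orange) and for the genes of each other list measured on both arrays (grey), with a black bar at each median. The secreted phospholipase A2 probes spread to both sides of 0 around a median of −0.14, while the hair follicle list lies mostly below 0 and the macrophage list above it.

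The tissue was checked against its markers. Suprabasal and basal keratinocyte markers were measured on both arrays, and so were markers of fibroblasts, fat and skeletal muscle, which lie below the epidermis. The 7 basal markers had a median of 0.14, with *Krt14* at least 2-fold higher at 1.35, *Krt15* at least 2-fold lower at −1.67, sums of 199 and 230.1 and *Krt5* highest in signal. The 10 fibroblast markers had a median of −0.22, with *Twist2* at least 2-fold lower at −1.05, sums of 364 and 338 and *Col1a2* highest in signal. Centring on spike-in RNA moves each difference and list median by −0.43, and no scaling moves it by −0.28. With both, the medians of the suprabasal, basal, skeletal muscle, adipocyte, eicosanoid, reacylation and other family lists were under 0. The endothelial and intracellular phospholipase A2 medians were under 0 with spike-in centring and not with no scaling. With quantile normalization the suprabasal, basal, skeletal muscle and eicosanoid medians were under 0 too, as were the suprabasal and skeletal muscle medians with cyclic loess and the skeletal muscle and eicosanoid medians with median scaling. *Dsc1*, *Lpar5*, *Adgre1*, *Cd163* and *Alox5* were under 2-fold with no scaling and with spike-in centring, and *Krt14*, *Gdpd1*, *Fcer1a*, *Vwf* and *Hpgds* with spike-in centring alone of these. The genes at least 2-fold lower became 3 for mast cells, 2 for fibroblasts and 2 for lysophospholipid signalling with either. With spike-in centring, *Lpcat1* and *Mboat2* of the reacylation list, *Alox12* of the eicosanoid list and *Calml3* of the suprabasal list were at least 2-fold lower as well. *Ms4a2* of the mast cell list was at least 2-fold lower also with quantile normalization and cyclic loess. *Lpar5* was also under 2-fold with median scaling, quantile normalization and cyclic loess. *Pla2g4f* of the intracellular phospholipase A2 list, at 0.94 here, was at least 2-fold higher with cyclic loess only. With normexp *Lpar3*, *Lpar5*, *Cd209a* and *Il23a* were under 2-fold. The hair follicle list had 10 to 17 genes at least 2-fold lower over the alternatives, and its median stayed below 0.

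**Figure D5:**
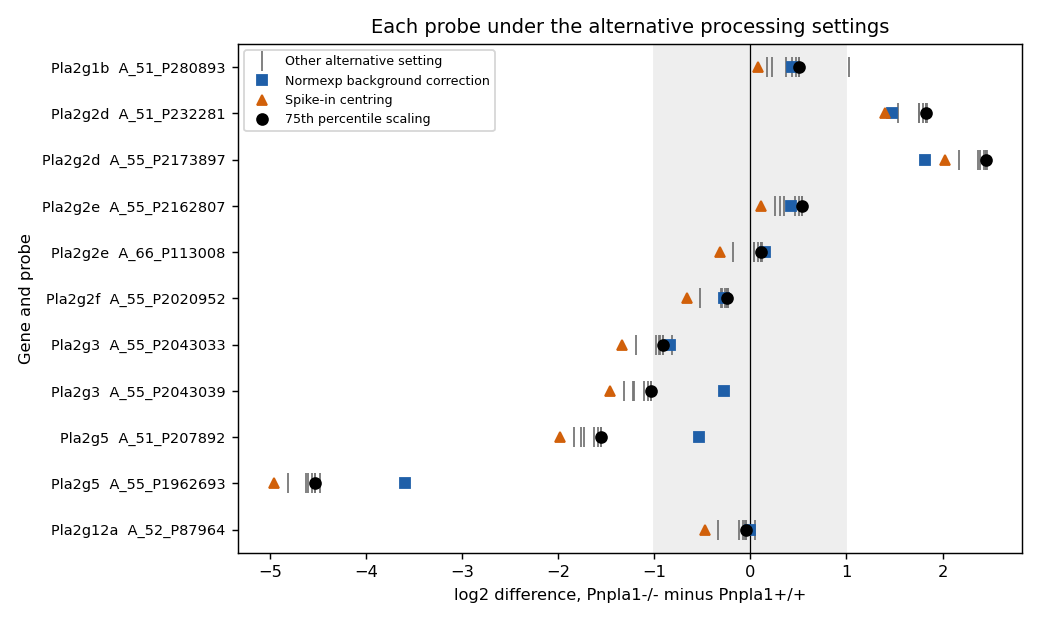
Difference of the log2 signal, *Pnpla1*-/- minus *Pnpla1*+/+, of each probe with a value under the 75th percentile scaling (black) and the alternative settings, with normexp background correction in blue, spike-in centring in orange and other settings as grey ticks. The *Pla2g2d* probes and *Pla2g5* A_55_P1962693 stay outside the grey band under 2-fold in every setting, while normexp brings *Pla2g5* A_51_P207892 to −0.54 and *Pla2g3* A_55_P2043039 to −0.27.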

How the data were processed

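The authors hybridized pooled skin RNA to the Mouse Gene Expression 4x44K v2 array and processed the scans with Feature Extraction 11.5.1.1. Per the file headers, the deposited intensity of a spot is background-subtracted and detrended within the array and not scaled between arrays. The authors also deposited a ratio of that intensity to 1 factor per array, used as an alternative.

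Intensities were divided by the 75th percentile over 43020 spots other than controls and taken to log2 with pandas 2.3.3 and numpy 2.4.6 (Python 3.11.15), with spots flagged as outliers left out. No member probe was flagged. A probe well above background on both arrays has a difference. A probe above it on 1 array has a bound. For the dim array the bound took the lowest signal of any probe well above background, or the probe's own where higher. Probes were counted at 2-fold. On the arrays, 71.7% and 73.3% of spots were well above background in *Pnpla1*+/+ and *Pnpla1*-/- skin, and none was saturated. Precision is limited by the number of arrays. The calculation was tested on simulated data.

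All 15 member probes kept their symbol in the RefSeq table on GRCm38.p6, which was used for names and for promoter sequences. Named were all members and *Pnpla1*, and of each list the gene with the highest signal in wild-type skin and up to 3 genes past 2-fold in each direction. *Il22*, *Ccr7*, *Ptges*, *Hpgds*, *Alox5*, *Lpcat1*, *Mboat2*, *Alox12*, *Calml3*, *Ms4a2*, *Pla2r1*, *Cd207*, *Lep*, the sex-linked genes and the neighbours on chromosome 4 were named after their values were seen. So were *Oc90*, *Pla2g4f*, *Lor* and *Flg*. The members and lists were chosen with earlier results of these data known. Alternatives were other scalings, quantile normalization, cyclic loess and normexp (offset 50) from limma 3.58.1 (R 4.3.3), centring on 8 spike-in probes, the deposited ratios, other filters on dim or flagged spots, and thresholds of 1.5-fold and 3-fold.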

Additional observations from a re-analysis of the deposited data

How the results depend on the processing

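The count of 2 probes at least 2-fold higher, both of *Pla2g2d*, was the same under 10 of the 11 alternative settings and at 1.5-fold and 3-fold, and it was 3 with no filter on dim probes, where a *Pla2g1b* probe joined. The 3 probes at least 2-fold lower became 1 with normexp background correction and 1 at 3-fold, in both cases *Pla2g5* A_55_P1962693, and 4 at 1.5-fold, with no scaling and with spike-in centring, where the other *Pla2g3* probe joined. The median of the member probes was −0.43 with no scaling and −0.57 with spike-in centring. *Pnpla1* was at −2.35 with no scaling, −1.51 with normexp and −2.49 with spike-in centring. Spike-in centring shifted the median of all probes by −0.43, no scaling by −0.28 and no filter on dim probes by 0.11. The other scalings, spike-in centring and the deposited ratios shift all probes alike, and the filters leave the measured member probes unchanged. Only quantile normalization, cyclic loess and normexp can move measured probes against each other. No probe past 2-fold changed sign under any alternative. Under 2-fold, the sign turned for *Pla2g2e* A_66_P113008 with no scaling and spike-in centring and for *Pla2g12a* with cyclic loess. At 2-fold, all probes gave 1883 higher and 859 lower, against 1236 and 1803 with no scaling, 1021 and 2767 with spike-in centring, 1157 and 379 with normexp, and 3818 and 1406 with no filter. The cause of the differences between settings was not tested. Probes under an intensity of 100 carried the largest technical error. No paired analysis was possible because each genotype has 1 array.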
